A study of Mus musculus with 9 samples.

Results

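Transcripts of 34 genes of the tricarboxylic acid (TCA) cycle and of mitochondrial fatty acid oxidation were followed in mouse pancreas with and without chemically induced pancreatitis. The genes were taken by symbol from a named list, and all 34 were found among the 17132 genes of the deposited table. By role, 4 encode parts of the pyruvate dehydrogenase complex, 13 the TCA cycle and its malate and isocitrate side reactions, 3 the carnitine shuttle, 11 the beta-oxidation spiral and 3 the electron transfer flavoprotein system. The libraries came from whole pancreas of wild-type C57BL/6 mice weighing 22 to 25 g, with 3 libraries in each of 3 groups. Control mice were injected with saline 7 times at hourly intervals. Model mice were injected on the same schedule with caerulein, an analogue of cholecystokinin that overstimulates the enzyme-secreting acinar cells, and were also given lipopolysaccharide (LPS) at the last injection. QYD mice had the injections of the Model group and were dosed at 0 and 8 h with a herbal medicine, Qingyi Decoction, when mice of the other two groups were dosed with saline. Pancreas was collected at 24 h. The labels used here give no age or sex, and the labels number the libraries without saying outright that each is 1 animal. If they are not separate animals, p-values measure only the spread between these libraries.

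In the TCA cycle, acetyl groups are joined to oxaloacetate by citrate synthase and oxidised in the mitochondrial matrix, and the electrons released feed the respiratory chain. Pyruvate dehydrogenase supplies acetyl-CoA from glucose, while beta-oxidation supplies it from fatty acids, which enter the matrix as carnitine esters and are shortened by acyl-CoA dehydrogenases, hydratases, hydroxyacyl-CoA dehydrogenases and thiolases. The acyl-CoA dehydrogenases pass their electrons to the electron transfer flavoprotein. Acinar cells, which make up most of the exocrine pancreas, are rich in mitochondria because the synthesis and secretion of digestive enzymes consume much ATP.

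The libraries held 19112923 to 20212744 estimated read counts, and their composition differed between groups. A list of 12 acinar cell genes took 60.1% to 61.7% of all counts in the Control libraries, 34.7% to 39.1% in Model and 34.3% to 37.6% in QYD. Of all counts, the 34 genes accounted for 0.0541% ± 0.0046 per Control library (SD, n = 3), against 0.164% ± 0.0116 for Model and 0.165% ± 0.0205 for QYD. Outside the 50 most abundant genes the order was different: their share was 0.586% ± 0.038 for Control, 0.493% ± 0.024 for Model and 0.530% ± 0.015 for QYD. Levels are therefore given as CPM (read counts scaled by depth) on the TMM scale, which is set so that the typical gene does not differ between libraries, and "rose" and "fell" below mean relative to the typical gene with a Benjamini-Hochberg adjusted p under 0.05. On library size alone the median of all tested genes was itself higher in Model by 2.19 on the log2 scale, and none of the 34 was lower there. In whole tissue, fewer cells of a type and less RNA per cell cannot be told apart.

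In Model relative to Control, most genes of the beta-oxidation spiral and all 3 genes of the electron transfer flavoprotein system fell, while the carnitine shuttle did not fall. All 34 genes were tested: 19 fell, 4 rose and 11 did not pass, where 42.6% of the 12828 genes tested in the table passed, 21.3% higher and 21.3% lower. The median log2 fold change of the 34 was -0.77, against 0.04 over all genes tested. The 3 libraries of Model lay entirely below the 3 of Control for 20 of the 34 and entirely above for 6, which is so for 24.9% and 27.4% of all genes tested. Among the 17 genes of fatty acid oxidation 12 fell and 2 rose, with a median of -0.78. Among the 17 of pyruvate dehydrogenase and the TCA cycle 7 fell and 2 rose, with a median of -0.23. On library size alone 31 of the 34 were higher and 0 lower, against 94% and 0.943% of all genes, and the median of the 34 was 1.37.

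**Figure D1:**
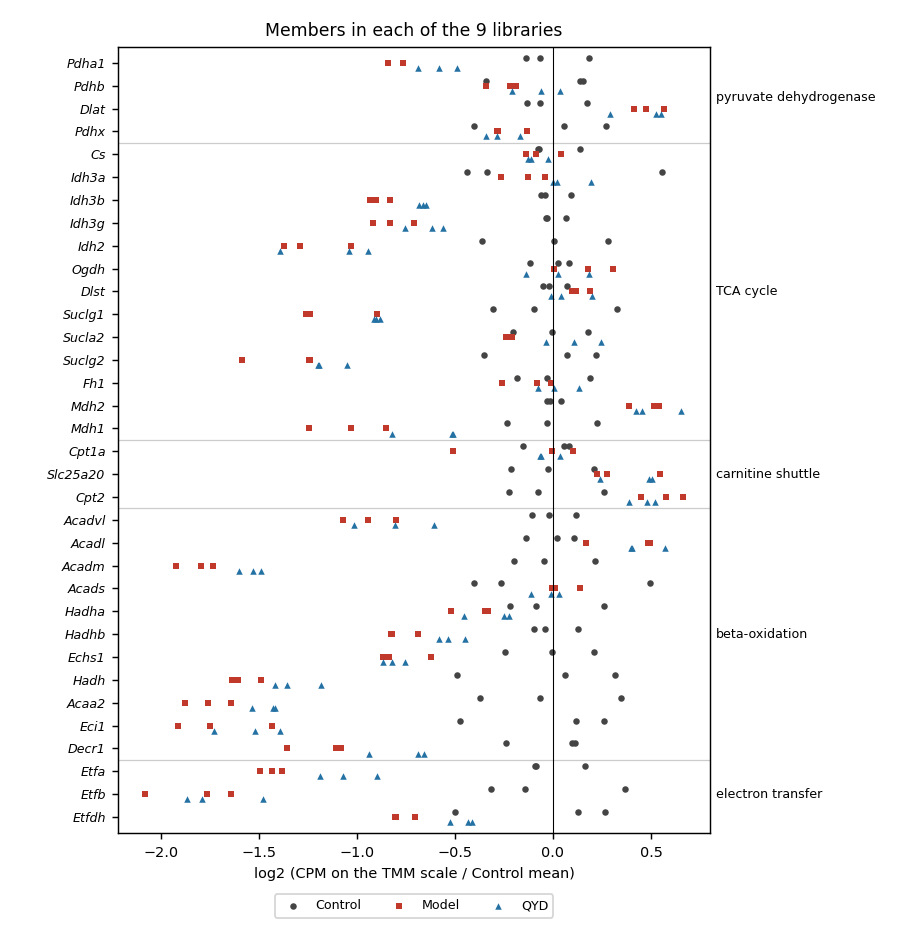
Each point is 1 library: log2 of its CPM on the TMM scale over the Control mean, for the 34 genes in order of their role (circles Control, squares Model, triangles QYD). Model points of most beta-oxidation and all electron transfer genes lie left of the Control points, the QYD points of Etfdh overlap with Control, the Model and QYD points of Dlat, Mdh2 and Cpt2 lie right of the Control points, and on library size alone the log2 fold changes of all 34 were above 0.

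Pyruvate dehydrogenase split by subunit. Pdha1, the alpha subunit of the decarboxylating E1 component, fell by 0.82 on the log2 scale (SE 0.12, adjusted p = 0.00038). Dlat, the acetyltransferase core of the complex, stood at 12.3, 9.93 and 10.4 CPM in the 3 Control libraries, at 15.1, 16.1 and 14.5 in Model and at 15.7, 13.3 and 16.0 in QYD. Every Model and QYD library was above every Control library. Dlat rose by 0.49 (SE 0.13, adjusted p = 0.012). The beta subunit of E1, Pdhb, had a log2 fold change of -0.25 ± 0.14 (SE), and the E3-binding protein Pdhx one of -0.23 ± 0.17, neither passing the threshold.

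In the TCA cycle, both isocitrate dehydrogenases and succinyl-CoA ligase held genes that fell. The genes Cs of citrate synthase, Ogdh and Dlst of 2-oxoglutarate dehydrogenase and Fh1 of fumarase did not pass. Dld, a further gene of 2-oxoglutarate dehydrogenase that is listed with the neighbouring genes below, fell in Model, with a log2 fold change of -0.52 ± 0.16 (SE). Citrate synthase, encoded by Cs, was at 61.2 ± 5.3 CPM per Control library (SD, n = 3) and 58.7 ± 3.8 per Model library, and its log2 fold change was -0.06 ± 0.11 (SE). Idh2, which makes NADPH in mitochondria, fell by 1.22 (SE 0.18). The regulatory subunits Idh3b and Idh3g of the NAD-dependent enzyme fell by 0.89 (SE 0.10) and 0.82 (SE 0.11). Its catalytic subunit Idh3a had a log2 fold change of -0.13 ± 0.22 and did not pass, with the library Control 43 at 16.8 CPM against 8.40 and 9.03 in the other Control libraries.

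Succinyl-CoA ligase is a pair of a shared alpha subunit and 1 of 2 beta subunits. The shared Suclg1 fell by 1.12 (SE 0.17) and the GDP-forming Suclg2 by 1.35 (SE 0.16). The ADP-forming Sucla2 had a log2 fold change of -0.22 ± 0.13 and did not pass. The remaining genes of the cycle that did not pass were Ogdh at 0.17 ± 0.13 and Dlst at 0.14 ± 0.11, both of 2-oxoglutarate dehydrogenase, and fumarase Fh1 at -0.11 ± 0.13.

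The malate dehydrogenases moved in opposite directions relative to the typical gene. Mitochondrial Mdh2 stood at 48.9, 48.4 and 50.9 CPM in Control, at 71.9, 70.5 and 64.7 in Model and at 66.2, 67.6 and 77.6 in QYD. The groups did not overlap with Control, and Mdh2 rose by 0.48 in Model (SE 0.11, adjusted p = 0.0057). Cytosolic Mdh1, which serves the malate-aspartate shuttle, fell from 79.6 ± 12.8 CPM (SD, n = 3) to 38.9 ± 5.2, a log2 fold change of -1.03 ± 0.16 (SE). On library size alone both were higher in Model, Mdh1 by 1.12 and Mdh2 by 2.64 on the log2 scale.

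No gene of the carnitine shuttle fell. Cpt2, which returns the acyl group to CoA on the matrix side, rose from 14.4 ± 2.5 CPM (SD, n = 3) to 21.3 ± 1.6, by 0.56 on the log2 scale (SE 0.14, adjusted p = 0.0069). Slc25a20, the carrier that exchanges carnitine and acylcarnitine, had a log2 fold change of 0.35 ± 0.16 with an adjusted p of 0.091. Cpt1a, the outer membrane transferase at which malonyl-CoA acts, was at 79.2 ± 6.8 CPM in Control and 73.1 ± 15.5 in Model (log2 fold change -0.11 ± 0.16), and the library Model 56 was the lowest of the 9 at 55.6 CPM.

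The chain-length-specific acyl-CoA dehydrogenases, which open each turn of the spiral, diverged. Acadm, the medium chain enzyme (chr3:153922353-153944643 on GRCm38.p6), was at 33.7, 44.95 and 37.5 CPM in Control, at 11.7, 10.2 and 11.2 in Model and at 13.8, 13.4 and 12.8 in QYD. The lowest Control library was more than 2-fold above every library of the injured groups. Acadm fell by 1.81 (SE 0.13, adjusted p = 4.2e-06), the smallest p of the 34. The very long chain enzyme Acadvl fell by 0.93 (SE 0.14).

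The long chain enzyme Acadl was at 68.9, 76.9 and 81.7 CPM in Control, at 85.4, 106.0 and 107.0 in Model and at 100.2, 112.7 and 100.0 in QYD. All libraries of the injured groups were above all Control libraries, the nearest pair being Model 56 and Control 45. Acadl rose by 0.39 in Model (SE 0.13, adjusted p = 0.033), a call that was lost without Control 43 (adjusted p = 0.10), without Control 44 (0.058), without Model 57 (0.11), without Model 59 (0.11) and with only the compared groups fitted (0.061). The short chain enzyme Acads had a log2 fold change of 0.05 ± 0.20 and did not pass. Its Control libraries were at 9.37, 17.4 and 10.3 CPM, and without the highest of them, Control 44, it was 0.38 with an adjusted p of 0.038.

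All 7 genes of the later steps of the spiral fell. Hadha, the alpha subunit of the trifunctional protein that carries out the later steps on long chains, was at 80.0, 111.5 and 87.9 CPM in Control, at 64.99, 73.2 and 74.1 in Model and at 78.4, 79.8 and 68.1 in QYD. Control 44 stood above the other libraries, and QYD 66 was close to Control 43. Hadha fell by 0.40 (SE 0.14, adjusted p = 0.045), which was the call of the 34 nearest to the threshold: without Control 44 the log2 fold change was -0.24 with an adjusted p of 0.16, and leaving out any other single library except Control 43 gave adjusted p between 0.053 and 0.14. Its partner Hadhb fell by 0.78 (SE 0.11), and the short chain hydratase Echs1 by 0.77 (SE 0.13).

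Hadh, the hydroxyacyl-CoA dehydrogenase of medium and short chains, which is also known from insulin-secreting cells, was at 70.5, 84.0 and 48.2 CPM in Control, at 22.2, 24.1 and 21.8 in Model and at 29.8, 26.4 and 25.3 in QYD. The groups did not overlap, although the Control libraries were spread widely. Hadh fell by 1.57 (SE 0.18). Of a list of 9 islet cell genes 7 passed as lower in Model, where on library size alone 4 passed as higher and 0 as lower. Its summed level was 856 to 1277 CPM in Control, 171 to 364 in Model and 119 to 213 in QYD. Within Control the list was highest in Control 45, the library in which Hadh was lowest. In QYD relative to Model the list had a median log2 fold change of -0.63, where Hadh was at 0.26 ± 0.18 (SE), and none of these genes passed. The part of islet cells in the result for Hadh was not tested.

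The thiolase gene Acaa2, whose product closes each turn, was at 45.2, 74.5 and 55.8 CPM in Control, at 15.9, 17.3 and 18.7 in Model and at 21.7, 20.2 and 21.9 in QYD. All 6 libraries of the injured groups were below the lowest Control library, and Acaa2 fell by 1.76 (SE 0.17). Enoyl-CoA isomerase Eci1, needed for unsaturated chains, was at 24.0, 21.8 and 14.5 CPM in Control, at 5.35, 5.98 and 7.45 in Model and at 7.02, 7.67 and 6.07 in QYD. Its groups did not overlap with Control, and Eci1 fell by 1.68 (SE 0.20). Decr1, the dienoyl-CoA reductase that serves the same chains, fell by 1.18 (SE 0.14).

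The electron transfer flavoprotein takes the electrons of the acyl-CoA dehydrogenases. Etfb, its beta subunit (chr7:43444072-43457800), was at 40.5, 57.7 and 36.0 CPM in Control, at 10.6, 13.2 and 14.4 in Model and at 12.95, 16.1 and 12.3 in QYD. Etfb fell by 1.82 (SE 0.19, adjusted p = 5.4e-05), the lowest log2 fold change of the 34. The alpha subunit Etfa (chr9:55454436-55512243) was at 51.4, 43.2 and 43.2 CPM in Control, at 16.3, 17.0 and 17.7 in Model and at 21.9, 24.7 and 20.2 in QYD. For both subunits the lowest Control library was well above the highest library of the injured groups. Etfa fell by 1.43 (SE 0.12). Etfdh, the dehydrogenase that hands the electrons on to ubiquinone, fell by 0.77 (SE 0.17).

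**Figure D2:**
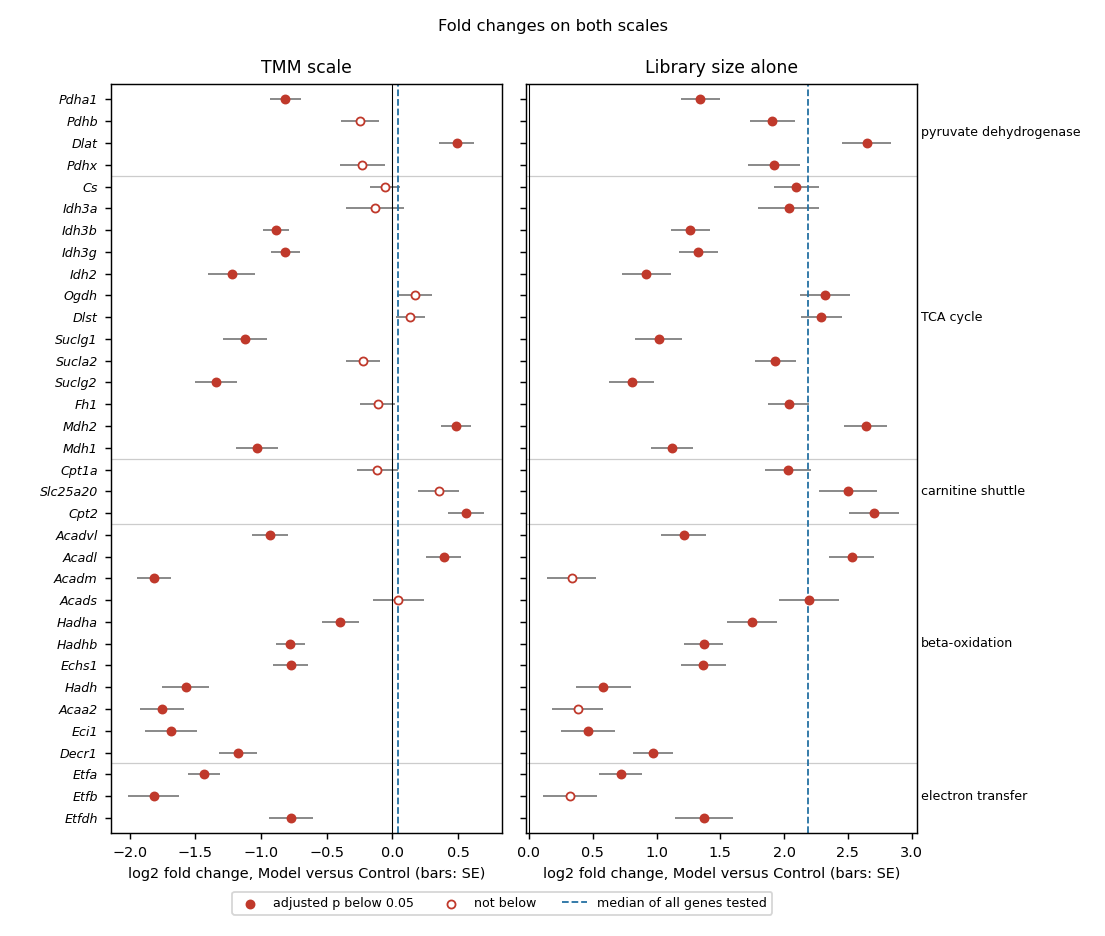
Log2 fold change of Model over Control with its standard error for the 34 genes, on the TMM scale (left) and on library size alone (right). Filled points have an adjusted p below 0.05 and the dashed line is the median of all genes tested, 0.04 on the left and 2.19 on the right. On library size alone all 34 values are above 0, and the genes that fell on the left are those farthest below the dashed line on the right. Both panels use the same counts and differ mainly by a common shift.

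Both scalings use the same counts and differ within a comparison mainly by a common shift, so the order of the genes is nearly fixed. Etfb, Acadm and Acaa2 were lowest of the 34 under both, with log2 fold changes of 0.32 ± 0.21, 0.33 ± 0.19 and 0.38 ± 0.20 (SE) on library size alone. These were the 3 genes that did not pass there. Cpt2, Dlat and Mdh2 were highest under both, with 2.70 ± 0.20, 2.65 ± 0.19 and 2.64 ± 0.17 on library size alone. In Control the fatty acid oxidation genes had their highest library in Control 44 for 12 of 17 genes, and the pyruvate dehydrogenase and TCA cycle genes had theirs in Control 43 for 11 of 17. Without Control 44 the median log2 fold change of the 34 was -0.63.

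Promoters are shown for genes at both ends of the 34, which fell or rose most, and for Hadhb, which starts close to Hadha. RefSeq windows of the 250 bases before the start were matched for 31 of the 34 genes on GRCm38.p6. Each is printed 5′ to 3′ on the strand of the gene, and capitals mark matches to 3 motifs searched on both strands: AAGGTCA, the core of sites for the oestrogen-related receptors, GCGCATGC, a core of NRF1 sites, and CCGGAAG, a core of ETS sites. The windows are chr7:43443822-43444071 (plus strand) for Etfb, chr3:153944644-153944893 (minus strand) for Acadm, chr4:107923590-107923839 (minus strand) for Cpt2 and chr5:30155003-30155252 (plus strand) for Hadhb.
Etfb: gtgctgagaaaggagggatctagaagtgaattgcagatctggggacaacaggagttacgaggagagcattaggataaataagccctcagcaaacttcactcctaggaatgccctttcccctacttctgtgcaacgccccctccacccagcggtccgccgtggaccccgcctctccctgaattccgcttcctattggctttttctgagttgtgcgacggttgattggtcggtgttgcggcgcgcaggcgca
Acadm: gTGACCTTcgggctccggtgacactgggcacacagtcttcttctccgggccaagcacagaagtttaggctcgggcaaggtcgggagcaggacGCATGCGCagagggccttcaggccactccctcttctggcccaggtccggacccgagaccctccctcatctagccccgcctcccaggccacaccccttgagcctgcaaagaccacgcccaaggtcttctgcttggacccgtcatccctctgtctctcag
Cpt2: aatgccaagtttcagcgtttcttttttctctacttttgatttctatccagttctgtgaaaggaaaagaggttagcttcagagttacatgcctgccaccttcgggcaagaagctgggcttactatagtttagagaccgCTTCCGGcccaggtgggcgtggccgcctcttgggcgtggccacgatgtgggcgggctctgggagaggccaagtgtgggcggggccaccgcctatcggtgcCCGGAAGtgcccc
Hadhb: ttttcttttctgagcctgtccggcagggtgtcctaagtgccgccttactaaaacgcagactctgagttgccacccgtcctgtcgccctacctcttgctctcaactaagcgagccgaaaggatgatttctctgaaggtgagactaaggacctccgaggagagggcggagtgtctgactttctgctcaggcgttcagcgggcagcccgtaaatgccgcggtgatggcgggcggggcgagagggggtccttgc

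Acadm holds the receptor core and the NRF1 core, both on the strand opposite to the one printed, and Cpt2 holds the ETS core once on each strand. The receptor core was in 1 of the 31 member windows (Acadm) and in 4.05% of the 27025 RefSeq windows of the same length. The NRF1 core was in 3 (Acadm, Etfa and Etfdh) and in 2.32% of all windows, and the ETS core in 3 (Idh3g, Slc25a20 and Cpt2) and in 7.05%. A match describes the letters of the window only. Hadha and Hadhb start 272 bases apart on opposite strands, so the window printed for Hadhb lies wholly between both starts. The log2 ratio of Hadha to Hadhb averaged 0.54 (SD 0.16) over Control, 0.94 (SD 0.08) over Model and 0.77 (SD 0.19) over QYD. The Model libraries did not overlap with Control in this ratio, which was chosen after its values were seen and was not tested.

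Ratios of 2 genes within a library do not depend on the scaling. They also depend on the lengths of both genes, so only their difference between groups is read. In all 9 ratios compared the Model libraries lay apart from the Control libraries. The share of other gene pairs for which this is so was not computed. Of single genes tested, 24.9% lay entirely below and 27.4% entirely above Control in Model. The 9 ratios are not separate results, because Acadm and Cs recur in them. Several set a gene that fell against one that did not, and they were chosen with earlier results of these data known. The log2 ratio of Sucla2 to Suclg2, the alternative beta subunits of succinyl-CoA ligase, was -0.89, -1.13 and -0.51 in Control, 0.52, 0.16 and 0.15 in Model and 0.31, 0.30 and 0.59 in QYD. It was higher than in Control by 1.12 in Model and by 1.24 in QYD. The log2 ratio of Mdh1 to Mdh2 averaged 0.68 (SD 0.23) over the 3 Control libraries, -0.83 (SD 0.23) over Model and -0.44 (SD 0.14) over QYD.

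Among the acyl-CoA dehydrogenases, the log2 ratio of Acads to Acadm averaged -1.69 (SD 0.28) over Control, 0.22 (SD 0.07) over Model and -0.14 (SD 0.12) over QYD, the widest difference of the 9 ratios. Acadm to Cs, a beta-oxidation enzyme against citrate synthase, was -0.67 ± 0.11, -2.42 ± 0.09 and -2.11 ± 0.11 in the same order. Pdha1 to Cs was 0.10 ± 0.26, -0.66 ± 0.05 and -0.40 ± 0.05. Hadha to Hadh was 0.49 ± 0.35, 1.64 ± 0.11 and 1.47 ± 0.11. The exact two-sided permutation test of 3 against 3 libraries cannot go below p = 0.1, which all 9 ratios reached in Model and in QYD against Control (adjusted p = 0.12 over the 27 tests). The ratio of Acadl to Acadm, chosen after its values were seen and not tested, went from 0.98 ± 0.18 in Control to 3.17 ± 0.26 in Model and 2.97 ± 0.10 in QYD.

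**Figure D3:**
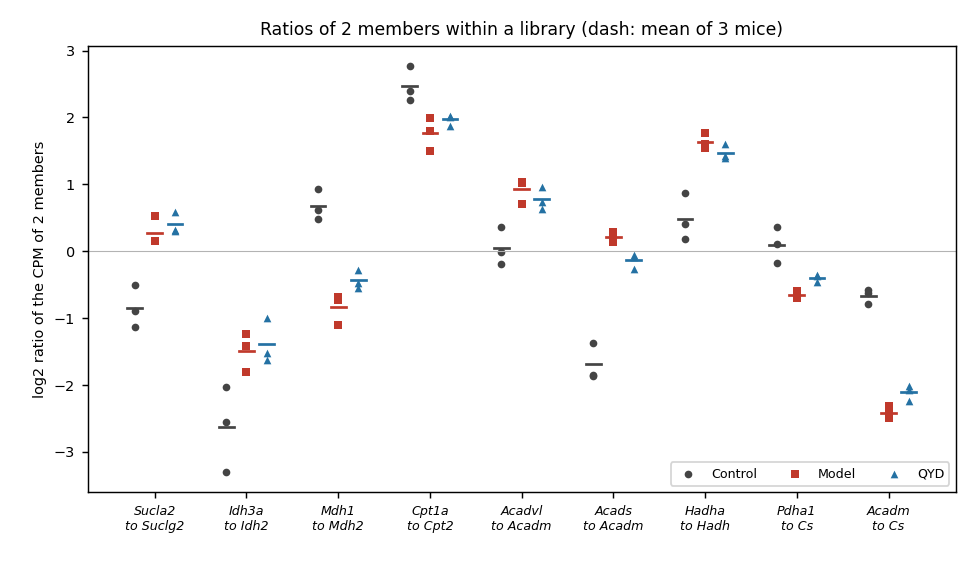
Log2 ratio of the CPM of 2 genes in each library (circles Control, squares Model, triangles QYD, dash the mean of 3). The Control points lie apart from the Model points in all 9 ratios, and the ratio of Mdh1 to Mdh2 goes from 0.68 in Control to -0.83 in Model.

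Per length, as FPKM, the order of the genes within a group differed between Control and the injured groups. FPKM scales by library total, so levels between groups carry the composition difference and only ranks are compared here. In Control the gene ranked first of the 34 was Etfb, at 22.0 ± 6.0 FPKM (SD, n = 3), followed by Mdh1 at 16.5 ± 2.0, Idh2 at 16.4 ± 3.6, Acaa2 at 16.3 ± 4.7 and Mdh2 at 16.3 ± 1.1. The places from Mdh1 to Mdh2 do not differ beyond their spread. In Model the first was Mdh2 at 101.6 ± 14.8, followed by Acadl at 92.01 ± 8.62, and then by Cs at 37.0 ± 5.6. Etfb was at rank 12 in Model and in QYD, Acaa2 went from rank 4 to 19 in Model, Acadm from 18 to 29, and Cs from 16 to 3. In QYD Mdh2 and Acadl were again first and second, and Mdh1 was the next at 44.2 ± 2.6.

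In QYD relative to Control the calls largely matched those of Model, with which it shares the Control libraries. Of the 34 genes 18 fell, 4 rose and 12 did not pass, against 40.7% of all genes tested, 20.5% higher and 20.3% lower. The median of the 34 was -0.49. The 4 genes that rose were again Mdh2 (0.51 ± 0.11, SE), Dlat (0.46 ± 0.13), Cpt2 (0.46 ± 0.14) and Acadl (0.46 ± 0.13), and the 18 that fell were all among the 19 of Model. Hadha was the other, at -0.30 ± 0.14 with an adjusted p of 0.11. The lowest were Etfb at -1.70 ± 0.19, Acadm at -1.54 ± 0.13, Eci1 at -1.53 ± 0.20 and Acaa2 at -1.46 ± 0.17. Etfa was at -1.05 ± 0.12 and Decr1 at -0.76 ± 0.14.

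On library size alone 33 of the 34 were higher in QYD than in Control and 0 lower, against 93.8% and 0.99% of all genes. Of the 22 calls on the TMM scale, 18 held with each library left out in turn, and those of Dlat, Cpt2, Acadl and Etfdh did not. In Model 21 of the 23 calls held, the exceptions being Acadl and Hadha.

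In QYD relative to Model, which asks what the decoction did in injured pancreas, none of the 34 passed edgeR's test (smallest adjusted p = 0.83), and neither did any gene of the table (0%). Before adjustment, 7 of the 34 had a p under 0.05, all higher in QYD, against 5.85% of all genes in either direction and 3.45% higher. DESeq2 and limma-voom called 0 of the 34 as well. The log2 fold change was above 0 for 26 of the 34, against 51.1% of all genes, and the QYD libraries lay entirely above the Model libraries for 13 and entirely below for 0, against 8.56% and 8.18%. The median of the 34 was 0.14, against 0.01 over all genes, and on library size alone 0.04 against -0.11. This pattern was not particular to the 34. Of 71 genes of the respiratory chain, 59 were above 0, with a median of 0.14 (0.02 on library size alone). In edgeR's test 14 of the 71 had an unadjusted p under 0.05, all higher in QYD, and 0 passed. For 15 of the 71 the QYD libraries lay entirely above Model, and for 1 entirely below.

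The 6 genes with the smallest p come from electron transfer, beta-oxidation and the TCA cycle. Etfa, the flavoprotein subunit given above, was higher by 0.39 on the log2 scale with a standard error of 0.12, and Decr1 by 0.42 with one of 0.14. The unadjusted p-values of edgeR's test were 0.0078 and 0.011, and the adjusted p was 0.83 for both. Decr1 was at 8.96, 10.7 and 10.9 CPM in Model and at 11.99, 14.2 and 14.6 in QYD, against 24.6, 24.8 and 19.5 in Control. For both, all QYD libraries lay above Model and below Control.

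Sucla2 was at 16.8, 16.5 and 16.4 CPM in Model, at 18.9, 20.8 and 23.0 in QYD and at 21.9, 16.8 and 19.3 in Control, a log2 fold change of 0.33 ± 0.12 between QYD and Model. Its QYD libraries lay within or just above the Control range. Mdh1 was at 33.6, 44.1 and 39.1 CPM in Model, at 45.1, 55.6 and 55.8 in QYD and at 93.1, 67.6 and 78.1 in Control, a log2 fold change of 0.42 ± 0.15. The other two were Hadhb at 0.25 ± 0.11 and Idh3b at 0.22 ± 0.10, with the seventh gene, Acadm, at 0.28 ± 0.13. All 3 had QYD libraries above Model and below Control. The genes that had risen in Model did not follow: the log2 fold change was -0.02 ± 0.12 for Dlat, 0.03 ± 0.11 for Mdh2, 0.07 ± 0.13 for Acadl and -0.10 ± 0.13 for Cpt2.

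Within a library, QYD lay apart from Model in 4 of the 9 ratios: Mdh1 to Mdh2 higher by 0.40, Acadm to Cs higher by 0.31, Pdha1 to Cs higher by 0.26 and Acads to Acadm lower, with a difference of -0.35. Each had an exact two-sided permutation p of 0.1, the smallest the design allows, and an adjusted p of 0.12. All but Mdh1 to Mdh2 hold Acadm or Cs, so they are not separate results. The share of other gene pairs for which QYD lay apart from Model was not computed. Of single genes tested, 8.56% lay entirely above and 8.18% entirely below Model in QYD. The count of 7 at an unadjusted p under 0.05 was 3 without Model 56, 4 without Model 57, 4 without QYD 65, 3 without QYD 66, 2 without QYD 68, 4 with RLE scaling and 0 on library size alone. The median was 0.07 without Model 56.

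**Figure D4:**
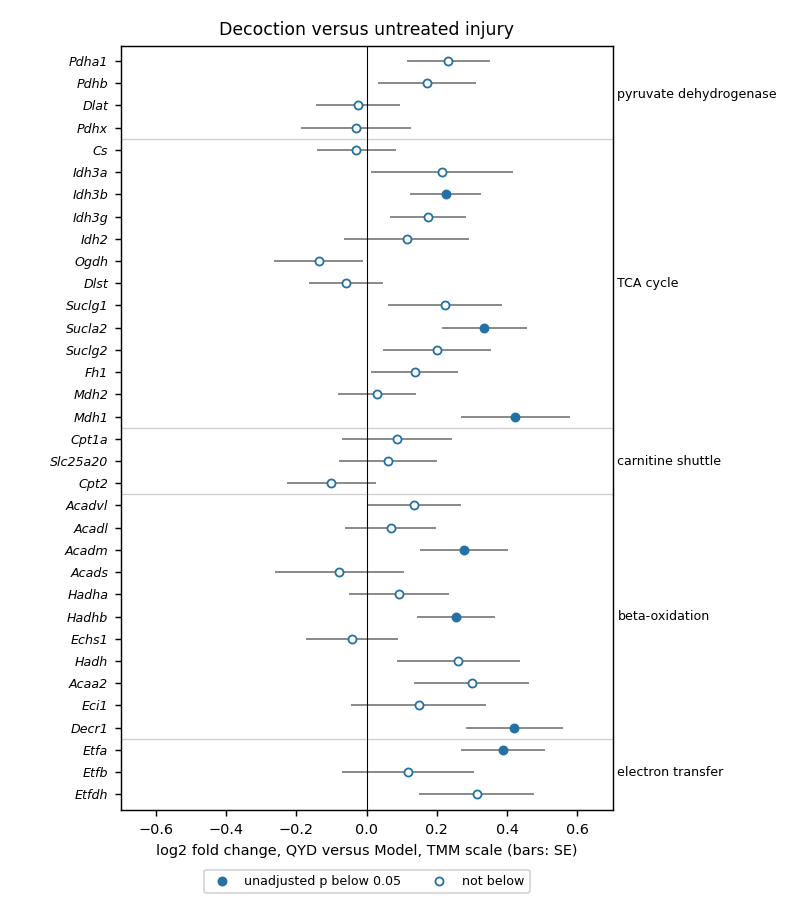
Log2 fold change of QYD over Model on the TMM scale with its standard error for the 34 genes; filled points have an unadjusted p below 0.05. Of the 34 values 26 are above 0 and none passed the adjusted threshold, and on library size alone 0 had an unadjusted p below 0.05.

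Neighbouring parts of mitochondrial metabolism were read from lists of other genes in Model relative to Control. Over all genes tested in that comparison 21.3% were lower and 21.3% higher. Of the 8 other genes of the TCA cycle 5 fell and 0 rose, with a median of -0.40, among them the succinate dehydrogenase subunits Sdhb (-1.31 ± 0.14, SE), Sdha (-0.51 ± 0.13) and Sdhd (-0.45 ± 0.13) and Dld (-0.52 ± 0.16), the E3 component shared by pyruvate and 2-oxoglutarate dehydrogenase. Of 24 further genes of mitochondrial fatty acid and branched-chain acyl-CoA breakdown 12 fell and 4 rose, with a median of -0.41. The list also holds genes of branched-chain amino acid and propionyl-CoA breakdown, and those named next are among them. The lowest p belonged to Pccb (-2.50 ± 0.17) and Hsd17b10 (-1.48 ± 0.11). Pcca (-2.22 ± 0.19) and Mut (-1.31 ± 0.14) followed. Pccb, Pcca and Mut encode the enzymes that take propionyl-CoA into the TCA cycle. Pccb and Pcca were also the only genes of that list below 0 on library size alone, at -0.35 and -0.07.

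Of 25 genes of pyruvate entry, anaplerosis and their control 10 fell and 4 rose. Mpc1, a subunit of the mitochondrial pyruvate carrier, fell by 1.34 (SE 0.14), and the dicarboxylate carrier Slc25a10 by 1.19 (SE 0.18). In the same list Idh1 and Me1, which make NADPH in the cytosol, rose, Idh1 from 30.3 ± 9.5 to 102.9 ± 12.1 CPM (SD, n = 3; log2 fold change 1.76 ± 0.20, SE) and Me1 from 2.34 ± 0.53 to 6.69 ± 0.70 CPM (1.52 ± 0.21). Cytosolic Idh1 thus rose while its mitochondrial counterpart Idh2 fell relative to the typical gene; on library size alone both were higher in Model.

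Peroxisomal fatty acid oxidation had 7 of 15 genes lower and 3 higher. Its bifunctional enzyme Ehhadh fell from 32.6 ± 8.6 to 6.80 ± 0.91 CPM (SD, n = 3), and Crot, which makes medium chain acylcarnitines in the peroxisome, rose by 1.14 (SE 0.17). In ketone body metabolism 3 of 5 genes fell and 0 rose.

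The transcriptional and allosteric regulators gave 8 lower and 5 higher of 26, where 21.3% of all genes tested were lower and 21.3% higher. Ppara, the nuclear receptor that drives fatty acid oxidation genes, fell by 2.02 (SE 0.20), from 6.04 ± 0.29 to 1.49 ± 0.27 CPM (SD, n = 3), and malonyl-CoA decarboxylase Mlycd by 1.65 (SE 0.19). Of 12 tested PPAR alpha target genes that are not among the 34, some also held in the lists above, 3 fell and 3 rose with a median of -0.49. Those counts are near the shares over all genes tested. Fgf21 fell from 7.98 ± 6.09 to 0.694 ± 0.19 CPM and Vnn1 rose from 2.14 ± 0.38 to 8.77 ± 3.12 CPM.

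Of 71 genes of the respiratory chain 66 fell and 0 rose, with a median of -0.89, and all 71 had Model libraries entirely below Control; on library size alone 70 were higher. Ndufa1, a subunit of complex I, had the smallest p (-2.03 ± 0.15, SE). Of 26 other genes of mitochondrial structure and import 9 fell and 3 rose, with a median of -0.19. Glycolysis went the other way, with 12 of 22 genes higher, 2 lower and a median of 0.73: Eno1 rose by 1.71 (SE 0.18), Pfkl by 1.46 (SE 0.15) and Pkm by 1.35 (SE 0.15). In a list of 8 genes of myeloid immunometabolism 7 rose and 0 fell. Hk2, Hk3 and Ldha are in this list and in that of glycolysis, so the lists are not separate. In whole tissue the cells in which these genes rose cannot be told.

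**Figure D5:**
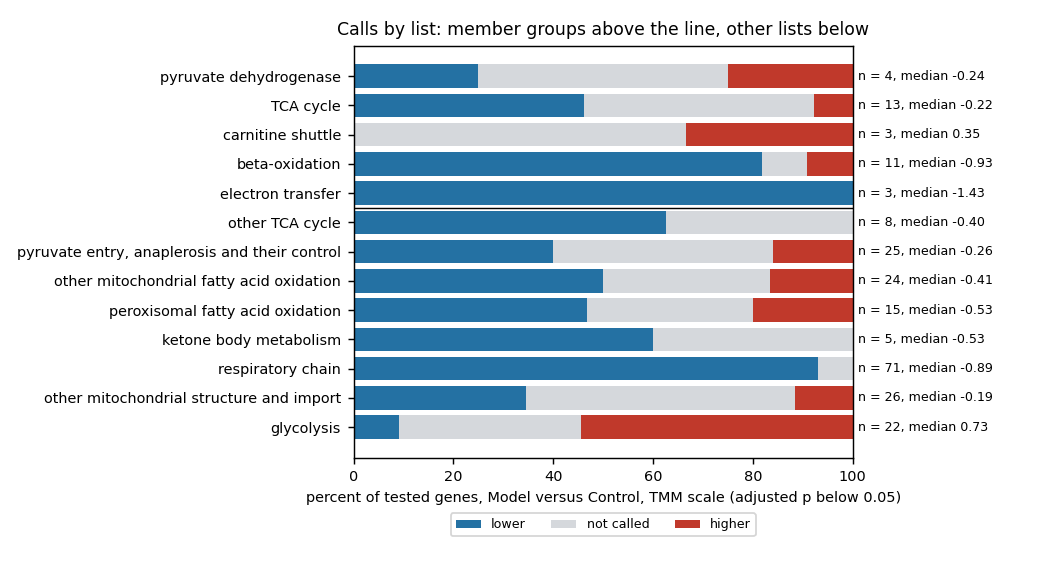
Percent of the tested genes of each list that were lower, not called or higher in Model relative to Control on the TMM scale, with the number tested and the median log2 fold change; the 34 genes are above the line, split by role. The electron transfer genes and the respiratory chain are lower for 3 of 3 and 66 of 71, glycolysis is higher for 12 of 22, and on library size alone the members and the respiratory chain were higher.

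The genes whose level over the 9 libraries was most like the mean of the 34 standardised members were Slc10a5 (Pearson's r = 0.987), Eif2b1 (0.987), Fbxo8 (0.987), Emc7 (0.986) and Ndufb4 (0.984). The points are the same 9 libraries in 3 groups, so r carries the difference between groups and is given as a description.

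Markers of some cell types moved with the groups, while the summed levels of others overlapped between Control and Model. Over all genes tested, 21.3% were higher in Model than in Control and 21.3% lower. All 12 acinar genes fell in Model, with a median of -2.96 (on library size alone 10 were lower and 2 higher), and 8 of 10 neutrophil genes rose. All 5 tested red blood cell genes fell, with a median of -1.94 that was 0.21 on library size alone, where 0 passed, and the list summed to 74.2 to 213.3 CPM in Control, 24.4 to 41.7 in Model and 16.5 to 43.2 in QYD. Of 8 macrophage and monocyte genes 4 rose and 1 fell, and their sum was 80.99 to 150.5 CPM in Control, 167.2 to 245.4 in Model and 197.7 to 213.3 in QYD. Of the fibroblast and stellate cell genes 3 of 8 rose and 1 fell, of the duct cell genes 3 of 7 rose and 1 fell, of the endothelial genes 2 of 6 rose and 1 fell, and of the 4 tested B and T cell genes 0 passed. The summed neutrophil list was at 9.68 to 39.7 CPM in Control, 116 to 187 in Model and 149 to 278 in QYD. White adipocyte genes, of which 2 of 8 tested fell (2 passed as higher and 0 as lower when scaled by library size), summed to 58.99 to 192.7 CPM in Control, 46.5 to 101.3 in Model and 66.6 to 125.4 in QYD. Genes of hepatocytes and kidney tubule summed to 23.9 to 70.2 CPM in Control and 3.21 to 6.19 in Model. Most of that sum in Control came from Cyp2e1 (46.8, 23.8 and 1.78 CPM) and Ttr (21.5, 15.5 and 19.6 CPM). Alb, Apoa1 and Lrp2 were no higher than 1.40 CPM in any Control library. Genes of brown fat and striated muscle, tissues known for strong fatty acid oxidation, summed to between 0.506 and 1.23 CPM over the whole list in all libraries. Cox7a1 among them was at 0 in all Control and Model libraries. Cidea, the only gene of that list that passed the filter on low counts, rose in Model (adjusted p = 0.015), from 0, 0.127 and 0 CPM in Control to 0.630, 0.357 and 0.483. The part of these cells in the results for the 34 genes was not tested.

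A few members overlap another protein-coding gene on the RefSeq annotation, and the sources used here do not state strandedness, so reads from the shared stretch cannot be told apart. Echs1 shares 687 bases with Paox on the opposite strand, which was at 11.4 CPM in Control and rose in Model by 0.66 on the log2 scale (adjusted p = 0.032). Pdha1 shares 1128 bases with Map3k15, at 0.530 CPM in Control and 0.636 in Model. Idh3b, Dlst, Etfb and Etfdh share 5 to 64 bases with Nop56, Prox2, Cldnd2 and Ppid.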

How the data were processed

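The deposited table gave, per the file headers, read counts and FPKM for 17132 genes in 9 libraries; the counts are taken as RSEM estimated counts made by the authors, 93.5% of them whole. The FPKM values, scaled by the authors for gene length and library total per the file headers, served only for ranks and for 2 alternatives. Build GRCm38.p6 and the tools RSEM 1.2.12, Bowtie2 2.2.5 and HISAT2 2.0.4 are listed, with no role, per the submitters' processing notes. Deposited group means (18 columns) and TPM (9 columns) were not used.

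Estimated counts were rounded and fitted with edgeR 4.0.16 in R 4.3.3: default expression filter (12828 genes kept, 4304 removed), TMM scaling, 1 quasi-likelihood model of group fitted to the 9 libraries together, and Benjamini-Hochberg adjustment over all genes with a threshold of 0.05. The standard error is the log2 fold change divided by the square root of F. The depth of 19112923 to 20212744 counts and 3 libraries a group gave a median standard error of 0.19 to 0.21. No pair of libraries of a group agreed within sampling noise. The fit was checked on simulated counts in which only a small part of the genes was changed. That check does not cover the scaling between groups as unlike in composition as these. Alternatives were RLE, TMM without the 50 most abundant genes, library size alone, no filter, 5 CPM in 3 samples, only the compared groups, DESeq2 1.42.0, limma 3.58.1 (voom, or log2 FPKM plus 1 or 0.1 with FPKM of 1 in 3 samples) and each library left out.

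The 34 genes, the other lists and the tests were chosen with earlier results of these data known. Values of every library are printed for the 6 called genes with the largest and the 4 with the smallest absolute log2 fold change in Model versus Control, for some of the 6 with the smallest p in QYD versus Model, and for genes in which 1 library stood apart. Up to 4 genes a list were named by smallest p with a mean of at least 1 CPM; some that this rule names are not reported here. The treatment label of the decoction group is spelled differently from the titles, which were used.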

Additional observations from a re-analysis of the deposited data

How the results depend on the processing

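The directions given for Model and QYD against Control are relative to the typical gene and turned over on scales that follow the library total, where the median of all genes is itself shifted. Against TMM that shift was 2.15 on library size alone, 1.37 with limma on log2(FPKM + 1) and 2.02 with log2(FPKM + 0.1) in Model versus Control, and 2.03, 1.27 and 1.91 in QYD versus Control. In each of these 3 settings 31 of the 34 genes were higher and 0 lower in Model, and 33 higher and 0 lower in QYD. The medians of the 34 were then 1.37, 1.30 and 1.39 in Model and 1.54, 1.41 and 1.55 in QYD. On library size alone, the log2 fold changes in Model versus Control that changed sign were Pdha1 1.34, Pdhb 1.91, Pdhx 1.92, Cs 2.10, Idh3a 2.04, Idh3b 1.26, Idh3g 1.33, Idh2 0.92, Suclg1 1.02, Sucla2 1.93, Suclg2 0.81, Fh1 2.04, Mdh1 1.12, Cpt1a 2.03, Acadvl 1.21, Acadm 0.33, Hadha 1.75, Hadhb 1.37, Echs1 1.37, Hadh 0.58, Acaa2 0.38, Eci1 0.46, Decr1 0.97, Etfa 0.72, Etfb 0.32, Etfdh 1.37. With limma on log2(FPKM + 1) they were Pdha1 1.25, Pdhb 1.77, Pdhx 1.29, Cs 1.97, Idh3a 1.61, Idh3b 1.19, Idh3g 1.25, Idh2 0.90, Suclg1 0.99, Sucla2 1.69, Suclg2 0.72, Fh1 1.81, Mdh1 1.07, Cpt1a 1.87, Acadvl 1.11, Acadm 0.31, Hadha 1.66, Hadhb 1.31, Echs1 1.31, Hadh 0.58, Acaa2 0.39, Eci1 0.43, Decr1 0.79, Etfa 0.68, Etfb 0.33, Etfdh 1.29. With log2(FPKM + 0.1) they were Pdha1 1.33, Pdhb 1.90, Pdhx 1.84, Cs 2.08, Idh3a 2.01, Idh3b 1.25, Idh3g 1.30, Idh2 0.94, Suclg1 1.04, Sucla2 1.91, Suclg2 0.84, Fh1 2.01, Mdh1 1.11, Cpt1a 2.00, Acadvl 1.202, Acadm 0.34, Hadha 1.75, Hadhb 1.37, Echs1 1.38, Hadh 0.61, Acaa2 0.42, Eci1 0.48, Decr1 0.95, Etfa 0.71, Etfb 0.35, Etfdh 1.40. In QYD versus Control, among the genes named there, they were Etfa 1.00, Hadh 0.74, Eci1 0.51, Acaa2 0.57, Acadm 0.50, Etfb 0.33, Hadha 1.73 on library size alone, Etfa 0.93, Hadh 0.71, Eci1 0.47, Acaa2 0.57, Acadm 0.45, Etfb 0.34, Hadha 1.64 with log2(FPKM + 1), and Etfa 0.98, Hadh 0.75, Eci1 0.52, Acaa2 0.60, Acadm 0.50, Etfb 0.36, Hadha 1.73 with log2(FPKM + 0.1).

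With RLE, a TMM that left out the 50 most abundant genes, a filter of 5 CPM in 3 samples and DESeq2, all 34 genes stayed on their side of the threshold in Model versus Control. The call of Hadha was lost with limma-voom (adjusted p = 0.053), without the low-count filter (0.10) and with only the compared groups fitted (0.068). Without the filter, Cs had a log2 fold change of 0.0017. With each library left out, log2 fold changes that did not pass and crossed 0 ranged from -0.11 to 0.019 for Cs, -0.31 to 0.25 for Idh3a, -0.24 to 0.051 for Cpt1a and -0.11 to 0.38 for Acads. Without Control 44, Pdhb (-0.39), Slc25a20 (0.47) and Acads (0.38) passed. The median of the 34 ranged from -0.78 to -0.63, and the count of genes higher in QYD versus Control from 2 (without QYD 65 or QYD 66) to 5 (without Control 44). The cause of these changes was not tested.

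In QYD versus Model no setting called any of the 34. The count at an unadjusted p under 0.05 was 4 with RLE, 0 on library size alone and with both FPKM fits, 4 without the filter, 11 with only the compared groups and 2 to 10 with a library left out. The median was 0.041 on library size alone, 0.029 and 0.031 with the FPKM fits and 0.071 to 0.21 with a library left out. No paired analysis was possible because the groups share no replicate numbers. The median standard error over all genes in that comparison was 0.19.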
